A study of Rattus norvegicus with 8 samples.

Results

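The 10 tubulin genes examined here are 3 alpha-tubulin genes (Tuba1a, Tuba1b and Tuba4a) and 7 beta-tubulin genes (Tubb2a, Tubb2b, Tubb3, Tubb4a, Tubb4b, Tubb5 and Tubb6). They were chosen by symbol from the 28909 gene symbols of the count table, and all 10 were among the 14309 genes with enough reads to be tested. The RNA came from primary hippocampal neurons of Sprague-Dawley rat embryos, grown on porous filter inserts so that somata stayed on the upper side and processes grew through the pores to the lower side. Ribosome-depleted total RNA was sequenced from the somata and from the processes of mock-treated (control) cultures and of cultures given the GABA-A receptor antagonist picrotoxin (PTX) for 48 h, from day in vitro 18 to day 20. PTX blocks inhibitory transmission and so raises network activity over this time. There were 2 libraries for each of the 4 conditions and 8 in all. No source used here says whether replicates came from separate cultures, so p-values measure the spread between these libraries, which may be partly technical. The cultures hold glia as well as neurons, and in a bulk sample fewer cells of a type and less RNA per cell cannot be told apart.

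Alpha- and beta-tubulin pair into the dimers that polymerise into microtubules, the tracks for transport in axons and dendrites. Each subunit is encoded by several genes, the isotypes, whose proteins differ most in the C-terminal tail, where modifying enzymes act. Tubb3 is the classical neuronal beta-tubulin, Tuba1a is the main alpha-tubulin of young neurons, Tubb2b serves migrating neurons, Tubb4a is high in myelinating glia and mature brain, and Tubb5 and Tubb6 are also made by non-neuronal cells. Tubulin mRNA is under autoregulation, in which free dimers cause the decay of tubulin mRNA being translated.

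All 10 genes had an entry in the RefSeq table of promoter windows (rat build GRCr8, 250 bases before to 50 after the annotated start), and they lie on chromosomes 3, 7, 9, 17, 18, 19 and 20. The authors mapped to the earlier build Rnor_6.0, so these coordinates do not apply to their files. Tuba1a and Tuba1b lie on chromosome 7 with their relative Tuba1c, and Tubb2a and Tubb2b lie on chromosome 17. The stretch from 40 to 11 bases before the start is shown for the 5 isotypes whose level differed between compartments and for Tubb6, which rose with PTX. Capitals mark TATAA, the core of a TATA box, searched on the sense strand only.
Tuba1b (chr7:131972598-131972627, minus strand): cctcagctgctacttaagaggctccggcgc
Tubb2a (chr17:31002146-31002175, plus strand): gtccccgggTATAAaaggtggagctggggg
Tubb3 (chr19:68365647-68365676, plus strand): gtctctTATAAgagggcgcggcggaggctg
Tubb4a (chr9:2012292-2012321, minus strand): gagggtgacctggcggtgacgcgggtacgg
Tubb4b (chr3:28438466-28438495, minus strand): gtcataagaggtaTATAAatgctggcagag
Tubb6 (chr18:63213247-63213276, plus strand): cgggagcgcgcggcgggccgcagtcacgcc
TATAA was found in this stretch in 4 of the 10 isotypes (Tuba4a, Tubb2a, Tubb3 and Tubb4b), against 2.75% of all 33469 promoter windows. Over the whole window and both strands, CCAAT was found in 7 of 10 isotypes against 37.5% of windows, and GGGCGG, the core of a GC box, in 8 of 10 against 33.1%. The cyclic-AMP response element TGACGTCA was found in Tubb2a alone among the 10, against 1.83% of windows, and the AP-1 motif TGANTCA in 0 of 10, against 7.33%. These matches describe the letters of the windows and show neither a bound site nor a cause.

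The 8 libraries held 12290890 to 18455662 counts. Genes of the mitochondrial genome took 68.5% to 72.5% of the counts in processes and 22.6% to 26.7% in somata, so that 4702054 to 5491237 counts per process library and 9517542 to 11227599 per somata library were left for other genes. Reads on the 10 isotypes numbered 19305 to 22225 per process library and 52080 to 70999 per somata library, and the lowest count of any isotype was the 132 reads of Tubb6 in 1 process control library. Levels are CPM (counts scaled to a common library total) after TMM scaling, which corrects for the mitochondrial share. Cell types were described by marker genes. The summed level of 10 neuronal markers was 2078 to 2419 CPM in control somata and 5267 to 5644 in control processes. That of 8 astrocyte markers was 4092 to 4482 and 13327 to 14938. These sums do not speak for every marker. In edgeR's quasi-likelihood test (adjusted p under 0.05), 2 of the 10 neuronal markers were higher and 6 lower in control processes. Of the 8 astrocyte markers 4 were higher and 2 lower. Among all genes tested, 25.8% were higher and 21.9% lower. Markers of the oligodendrocyte lineage, 11 in number, summed to 352 to 543 CPM in control somata and 516 to 658 in control processes. These ranges overlapped, and of the 10 tested 1 was higher and 1 lower in control processes. Microglial markers summed to 0.587 to 2.44 CPM over the 8 libraries. Endothelial and fibroblast markers summed to 34.5 to 107 CPM in control somata and 29.4 to 59.9 in control processes, with the endothelial marker Cldn5 at 0 in all 8 libraries.

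**Figure D1:**
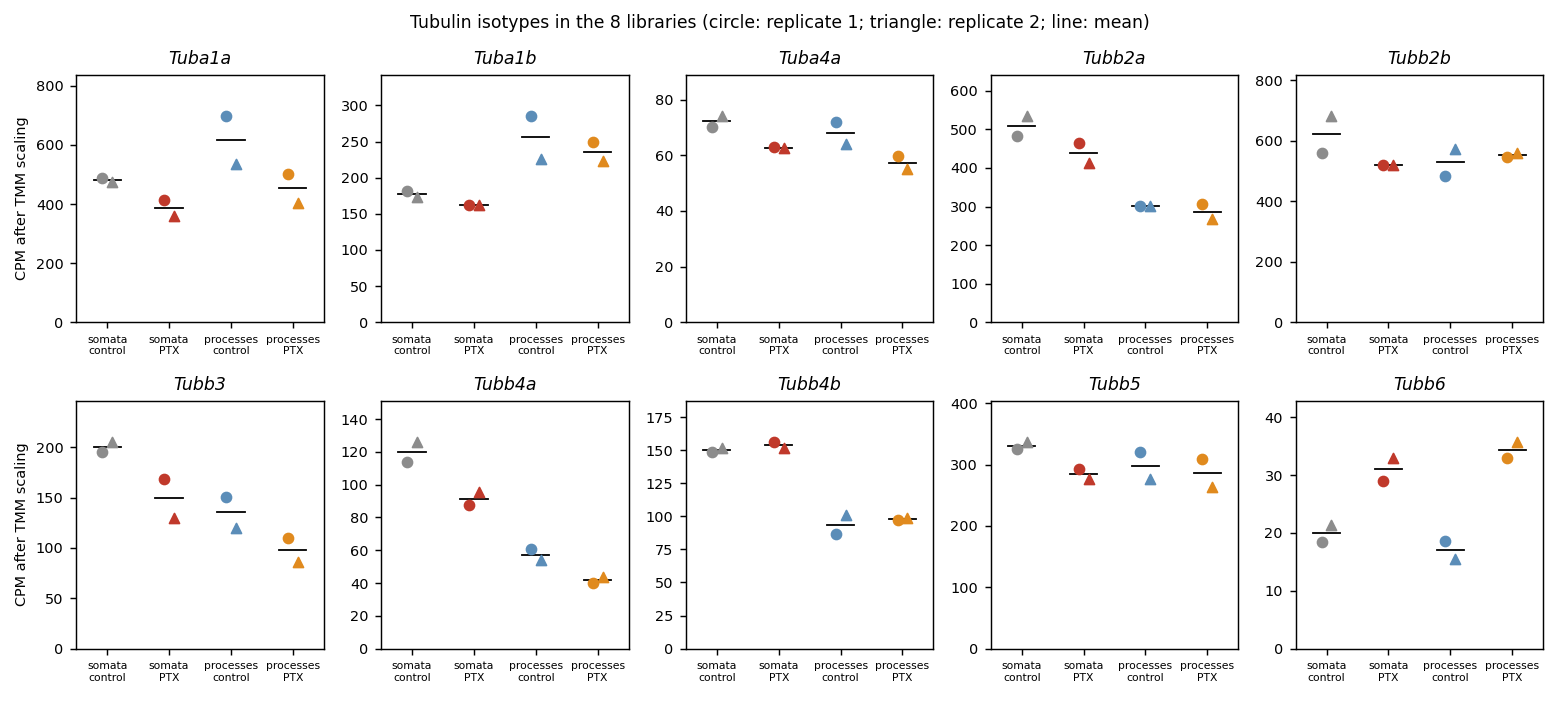
Level of each tubulin isotype (CPM after TMM scaling, y axis from 0) in the 2 libraries of each condition (circle, replicate 1; triangle, replicate 2; line, mean). Tubb4a, Tubb4b and Tubb2a sit lower in all 4 process libraries than in all 4 somata libraries, Tuba1b sits higher, and Tubb6 sits higher in all 4 PTX libraries than in all 4 control libraries.

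The first question was how the level of each tubulin mRNA differed between the compartments of mock-treated cultures. In control cultures Tuba1b was higher in processes than in somata, and Tubb2a, Tubb3, Tubb4a and Tubb4b were lower. The fold of processes to somata was 1.44 for Tuba1b and ran from 0.478 (Tubb4a) to 0.675 (Tubb3) for the 4 that were lower. The remaining 5 isotypes did not pass the test. In a fit that blocks on the replicate number (same-numbered libraries deviate together), 2 of 10 were called higher and 5 lower, adding Tuba1a and Tubb2b. In numbers, 1 of 10 isotypes was called higher and 4 of 10 lower (edgeR's quasi-likelihood test, adjusted p under 0.05), where 25.8% and 21.9% of all genes tested were called higher and lower, 47.7% in all. With the block 29.8% and 28.0% of all genes were called, 57.8% in all. The share of isotypes called was thus near that of all genes, and the median log2 fold change was -0.23 for the isotypes and -0.05 for all genes tested.

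Tubb4a had the largest difference between compartments of the 10. Its level was 114 and 126 CPM in the control somata and 60.8 and 53.8 CPM in the control processes. With PTX it was 87.3 and 95.7 CPM in somata and 39.7 and 43.8 CPM in processes. Every process library lay below every somata library, whatever the treatment. The log2 fold change of processes against somata was -1.06 ± 0.117 (SE, n = 2 per condition) in control cultures, with an adjusted p of 3.71e-05 by edgeR's quasi-likelihood test. In PTX cultures it was -1.13 ± 0.119 (adjusted p = 2.55e-05 in edgeR's quasi-likelihood test).

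Tubb2a and Tubb4b, which are widely made beta-tubulins, went the same way. Tubb2a was at 483 and 535 CPM in control somata and at 302 and 303 CPM in control processes. With PTX it was at 464 and 413 CPM in somata and at 305 and 267 CPM in processes. Its process libraries, of either treatment, all lay below its somata libraries. The log2 fold change of processes against somata was -0.75 ± 0.123 in control cultures (edgeR, adjusted p = 0.000583) and -0.62 ± 0.123 in PTX cultures (edgeR, adjusted p = 0.00191). Tubb4b was at 149 to 156 CPM over the 4 somata libraries and at 86.4 to 101 CPM over the 4 process libraries, again with no overlap. For Tubb4b the log2 fold change was -0.68 ± 0.110 in control cultures (edgeR, adjusted p = 0.000521) and -0.65 ± 0.109 in PTX cultures (edgeR, adjusted p = 0.000623).

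Tubb3 was at 195 and 205 CPM in control somata and at 151 and 119.7 CPM in control processes. With PTX it was at 168 and 129.9 CPM in somata and at 109.7 and 86.1 CPM in processes. Within each treatment the process libraries lay below the somata libraries, but replicate 2 of the PTX somata lay below replicate 1 of the control processes. Its log2 fold change of processes against somata was -0.57 ± 0.165 in control cultures (edgeR, adjusted p = 0.0159) and -0.61 ± 0.166 in PTX cultures (edgeR, adjusted p = 0.011). The call in control cultures was lost without replicate 2 of the control somata (log2 fold change -0.54, edgeR adjusted p = 0.0612) or of the control processes (-0.41, edgeR adjusted p = 0.124). In PTX cultures it was lost without replicate 1 of the PTX somata (-0.41, edgeR adjusted p = 0.104) or replicate 2 of the PTX processes (-0.44, edgeR adjusted p = 0.0998).

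Of the alpha-tubulins, Tuba1b differed in the other direction. This gene for a widely made alpha-tubulin was at 181 and 174 CPM in control somata and at 286 and 226 CPM in control processes. With PTX it was at 162 CPM in both somata libraries and at 249.6 and 223 CPM in processes. All 4 process libraries lay above all 4 somata libraries. The log2 fold change of processes against somata was 0.53 ± 0.130 in control cultures (edgeR, adjusted p = 0.00696) and 0.54 ± 0.130 in PTX cultures (edgeR, adjusted p = 0.00552). The control call was lost without replicate 1 of the control processes, where it was 0.35 with an edgeR adjusted p of 0.0533, and with upper-quartile factors, where it was 0.32 with an edgeR adjusted p of 0.0549. Without TMM factors, when counts are scaled by library size alone, the median of all genes moved to -1.86 in control and -1.87 in PTX cultures and Tuba1b turned to -1.29 in both, which is 0.56 and 0.59 above those medians.

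Tuba1a was at 488 and 475 CPM in control somata and at 698 and 535 CPM in control processes. With PTX it was at 414 and 361 CPM in somata and at 502 and 404 CPM in processes, where the groups overlapped. The control libraries did not overlap, and the log2 fold change of processes against somata there was 0.36 ± 0.157, with an edgeR adjusted p of 0.0844. With the replicate block it was 0.34 with an adjusted p of 0.0049 in the same test, and DESeq2 gave 0.37 with an adjusted p of 0.048. With library size alone it turned to -1.46, which is 0.39 above the median of all genes.

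Tuba4a, an alpha-tubulin of mature tissue, spanned 54.9 to 74.2 CPM over all 8 libraries. Its log2 fold change of processes against somata was -0.09 in control cultures, with a 95% interval from -0.32 to 0.15. Tubb2b was at 561 and 682 CPM in control somata and at 484 and 574 CPM in control processes, so the groups overlapped. The resulting log2 fold change was -0.23 ± 0.135 (edgeR, adjusted p = 0.178), and the adjusted p was 0.0489 with the replicate block. Tubb5 ran from 276 to 337 CPM over the 4 control libraries, with a log2 fold change of -0.15 and an interval from -0.43 to 0.12. Tubb6 was at 18.4 and 21.3 CPM in control somata and at 18.6 and 15.5 CPM in control processes, with a log2 fold change of -0.22 and an interval from -0.54 to 0.10. For Tuba4a, Tubb5, Tubb6 and Tubb2b (interval from -0.53 to 0.07) the intervals do not reach the estimate of -0.75 for Tubb2a. The interval of Tubb2a itself ran from -1.02 to -0.48 and overlaps with those of Tubb2b and Tubb6. That of Tubb3, from -0.93 to -0.20, overlaps with each of them.

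**Figure D2:**
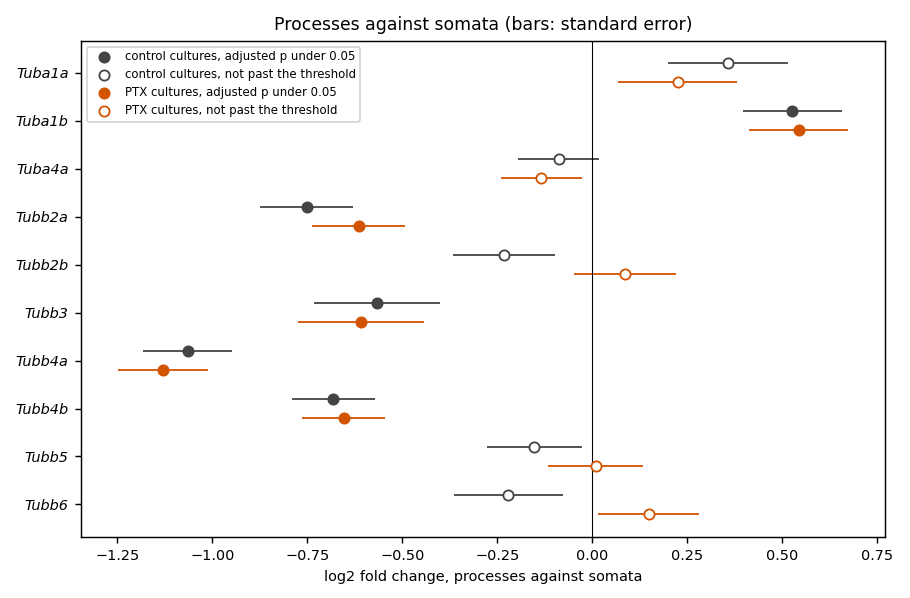
Log2 fold change of processes against somata (x axis) for each isotype in control cultures (grey) and PTX cultures (orange), with bars of 1 standard error and filled points where the adjusted p of edgeR's quasi-likelihood test was under 0.05. Tubb4a lies farthest to the left at -1.06 and -1.13, and Tuba1b lies farthest to the right at 0.53 and 0.54.

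In PTX cultures the same 5 isotypes were called, 1 of 10 higher (Tuba1b) and 4 of 10 lower (Tubb2a, Tubb3, Tubb4a and Tubb4b), against 25.7% and 24.0% of all genes, 49.8% in all. The median log2 fold change was -0.06 for the isotypes. Among those not called, Tubb2b was at 519.5 and 519 CPM in PTX somata and at 544 and 558 CPM in PTX processes, with a log2 fold change of 0.09 and an interval from -0.21 to 0.38. Tubb5 had a log2 fold change of 0.01 with an interval from -0.27 to 0.29, and Tubb6 one of 0.15 with an interval from -0.14 to 0.44. With upper-quartile factors, which move the median of all genes to -0.25 in control and -0.23 in PTX cultures, Tubb2b, Tubb5 and Tubb6 turned to -0.09, -0.17 and -0.03 in PTX cultures, against medians of all genes lower still. The control and the PTX comparison of compartments share no library but come from the same fit. Same-numbered control and PTX libraries also deviated together (r = 0.540 in somata and 0.274 in processes), so the comparisons are not independent.

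The balance of alpha- to beta-tubulin reads differed between compartments in the same sense, with more alpha reads in processes. This ratio is taken within a library and does not depend on scaling between libraries. It counts all 8 alpha- and 8 beta-tubulin symbols of the table, Tuba1c among them. The 4 somata libraries held 44.7 to 51.2 alpha-tubulin reads per 100 beta-tubulin reads, and the 4 process libraries held 66.7 to 96.7. The ranges did not overlap, and among the process libraries replicate 1 of the control stood highest, with 96.7 against 75.0 in replicate 2. As summed levels, the 3 alpha isotypes reached 731 ± 11.8 CPM (SD, n = 2) in control somata and 941 ± 163 in control processes, and the 7 beta isotypes 1952 ± 149.8 and 1432 ± 13.8. All 10 isotypes together were at 2683 ± 138 CPM in control somata and 2373 ± 149 in control processes, a log2 ratio of -0.18. The spread (root of the summed variances of the log2 level in the 2 conditions) was 0.12.

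**Figure D3:**
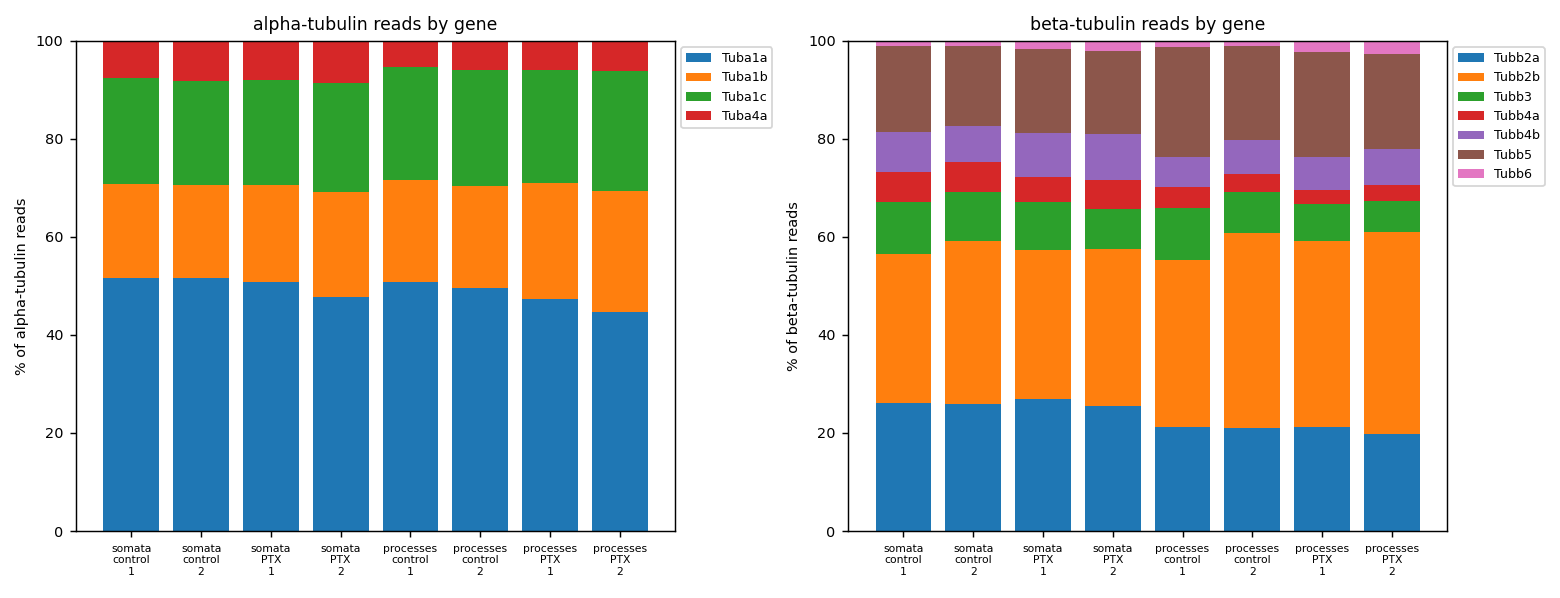
Share of alpha-tubulin reads (left) and of beta-tubulin reads (right) that fell on each gene, in percent, for each of the 8 libraries, for the 4 alpha- and 7 beta-tubulin genes that hold nearly all of them. Tubb2b and Tubb5 take larger and Tubb2a, Tubb4a and Tubb4b smaller shares of the beta-tubulin reads in processes, and the share of Tubb6 is larger in the PTX libraries.

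Shares of reads are not corrected for transcript length, so they compare a gene with itself across libraries and not with other genes. Tubb2a took 25.5% to 27.0% of beta-tubulin reads in the 4 somata libraries and 19.7% to 21.3% in the 4 process libraries. Tubb2b took 30.3% to 33.1% in somata and 34.0% to 41.2% in processes. Tubb4a took 5.09% to 6.16% in somata and 2.76% to 4.27% in processes. Tubb5 took 16.4% to 17.6% in somata and 19.1% to 22.5% in processes, and Tubb4b 7.36% to 9.38% and 6.08% to 7.29%. For none of these genes did the compartments overlap. Shares were larger in processes for Tubb2b and Tubb5 and smaller for Tubb2a, Tubb4a and Tubb4b, while those of Tubb3 and Tubb6 overlapped. A share depends on the other genes of the family, so a larger share does not show a higher level. Within alpha-tubulin, Tuba4a took 7.44% to 8.27% of reads in somata and 5.22% to 6.08% in processes, again with no overlap, while the share of Tuba1a was 51.7% in control somata and 50.1% in control processes.

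The second question was how the isotypes responded to 48 h of PTX. Tubb6 rose in both compartments, by a fold of 1.56 in somata and 2.01 in processes. In edgeR's quasi-likelihood test without a replicate block and with the filter on low counts, none of the other 9 passed in either compartment, so 1 of 10 isotypes was called higher and 0 lower in each. Of all genes tested, 2.09% were called higher and 1.50% lower in somata (3.59% in all), and 1.64% and 2.10% in processes (3.74% in all). The median log2 fold change of the 10 isotypes was -0.22 in somata and -0.10 in processes, against -0.01 for all genes in each.

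Tubb6 was at 18.4 and 21.3 CPM in control somata and at 29.1 and 33.0 CPM in PTX somata. In processes it was at 18.6 and 15.5 CPM in control cultures and at 33.0 and 35.7 CPM with PTX. These values rest on 434, 545, 808 and 779 reads in somata and on 167, 132, 287 and 355 reads in processes. All 4 PTX libraries lay above all 4 control libraries. The log2 fold change was 0.64 ± 0.130 in somata (edgeR, adjusted p = 0.0221) and 1.01 ± 0.146 in processes (edgeR, adjusted p = 0.00537). The call in processes held when any 1 of the 8 libraries was left out, with log2 fold changes from 0.88 to 1.15. The call in somata was lost without replicate 1 or replicate 2 of the control somata (edgeR adjusted p = 0.191 and 0.096) or of the PTX somata (0.0677 and 0.166), with log2 fold changes between 0.53 and 0.74.

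The share of Tubb6 among beta-tubulin reads, which needs no scaling between libraries, was 0.999% and 1.04% in control somata and 1.69% and 2.04% in PTX somata. In processes it was 1.31% and 1.08% in control cultures and 2.29% and 2.64% with PTX. The difference between its PTX effects in processes and in somata was 0.37 ± 0.195 on the log2 scale, with a 95% interval from -0.06 to 0.80 and an adjusted p of 1 in edgeR's interaction test. A larger rise in processes was therefore not shown, and the interval spans no difference as well as one of 0.80.

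**Figure D4:**
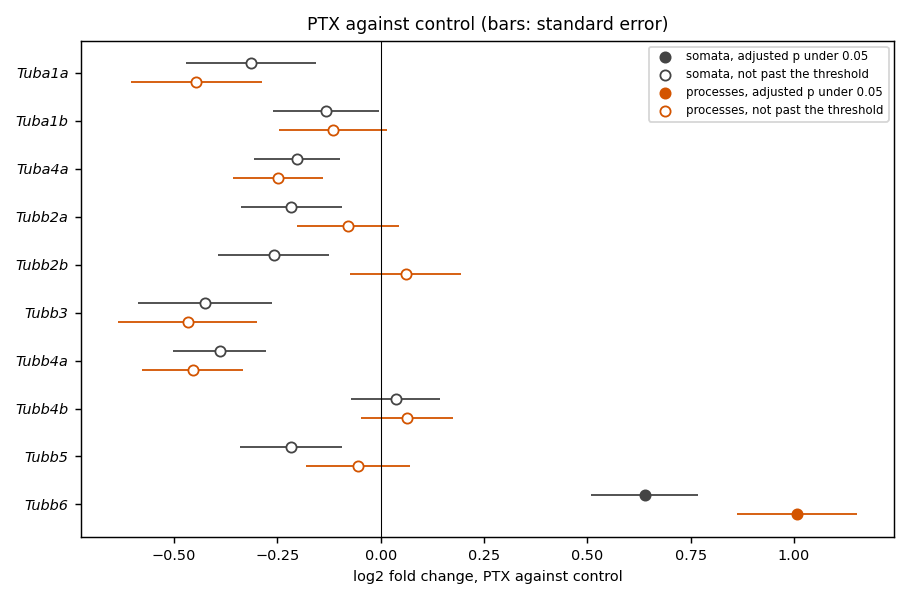
Log2 fold change of PTX against control cultures (x axis) for each isotype in somata (grey) and processes (orange), with bars of 1 standard error and filled points where the adjusted p of edgeR's quasi-likelihood test was under 0.05. Tubb6 stands alone on the right at 0.64 and 1.01, and Tuba1a, Tubb3 and Tubb4a lie between -0.31 and -0.47 in both compartments.

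A group of 3 isotypes had lower levels with PTX in both compartments and were called in both with the replicate block. Without the block, calls among them came with the likelihood ratio test (Tubb4a in both compartments, adjusted p = 0.0446 and 0.0314) and with no filter on low counts (Tubb3 in somata and all 3 in processes). In somata, 4 isotypes were called with the block, Tubb6 higher and Tuba1a, Tubb3 and Tubb4a lower, where 7.21% of all genes were called higher and 6.79% lower (14.0% in all). In processes the same 4 were called in the same directions, where 5.10% of all genes were called higher and 6.09% lower (11.2% in all). Tubb3 was at 195 and 205 CPM in control somata and at 168 and 129.9 CPM with PTX, and at 151 and 119.7 CPM in control processes and at 109.7 and 86.1 CPM with PTX. In neither compartment did the PTX libraries overlap with the controls. Its log2 fold change was -0.42 ± 0.163 in somata (edgeR adjusted p = 0.222, and 0.0036 with the block) and -0.47 ± 0.168 in processes (edgeR adjusted p = 0.181, and 0.00513 with the block).

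Tubb4a and Tuba1a had the same pattern. For Tubb4a, with 114 and 126 CPM in control somata against 87.3 and 95.7 CPM with PTX, the log2 fold change was -0.39 ± 0.112 in somata (edgeR adjusted p = 0.0937, and 0.00426 with the block). In processes, with 60.8 and 53.8 CPM against 39.7 and 43.8 CPM, it was -0.45 ± 0.122 (edgeR adjusted p = 0.0728, and 0.00594 with the block). Tuba1a had a log2 fold change of -0.31 ± 0.157 in somata (edgeR adjusted p = 0.388, and 0.0309 with the block) and of -0.45 ± 0.158 in processes (edgeR adjusted p = 0.175, and 0.00383 with the block). For both genes all PTX libraries of a compartment lay below its control libraries.

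Counting libraries alone, 8 of 10 isotypes had both PTX somata libraries below both control somata libraries, where 25.0% of all genes did, and the other 2 (Tubb4b and Tubb6) had them above, where 24.0% did. In processes 4 of 10 lay below (Tuba1a, Tuba4a, Tubb3 and Tubb4a), where 22.3% of all genes did, and 1 of 10 above (Tubb6), where 20.1% did. Tuba4a, at 70.3 and 74.2 CPM in control somata and 63.0 and 62.6 CPM with PTX, had log2 fold changes of -0.20 (somata) and -0.25 (processes) and passed neither test. Tuba1b had log2 fold changes of -0.13 and -0.12, Tubb2a of -0.22 and -0.08, Tubb2b of -0.26 and 0.06, and Tubb5 of -0.22 and -0.05, in somata and processes. Tubb4b had 0.04 and 0.06, and its 95% interval was -0.20 to 0.27 for somata and -0.18 to 0.31 for processes. Summed over the 10 isotypes, the level was 2281 ± 107 CPM in PTX somata and 2142 ± 152 in PTX processes, a log2 ratio to control of -0.23 and -0.15. The spread, taken as for the compartments, was 0.10 and 0.14.

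A difference of the PTX effect between the compartments was not shown for any isotype. In the interaction test 0 of 10 were called, as were 0% of all genes tested, with 572 genes of 14309 at an unadjusted p under 0.05. DESeq2 and the likelihood ratio test also called 0 of 10. With the replicate block it was 0 of 10 where 0.105% of all genes were called. The differences between the PTX effects ran from -0.13 (Tuba1a) to 0.37 (Tubb6), and that of Tubb2b was 0.32 with a 95% interval from -0.10 to 0.74.

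**Figure D5:**
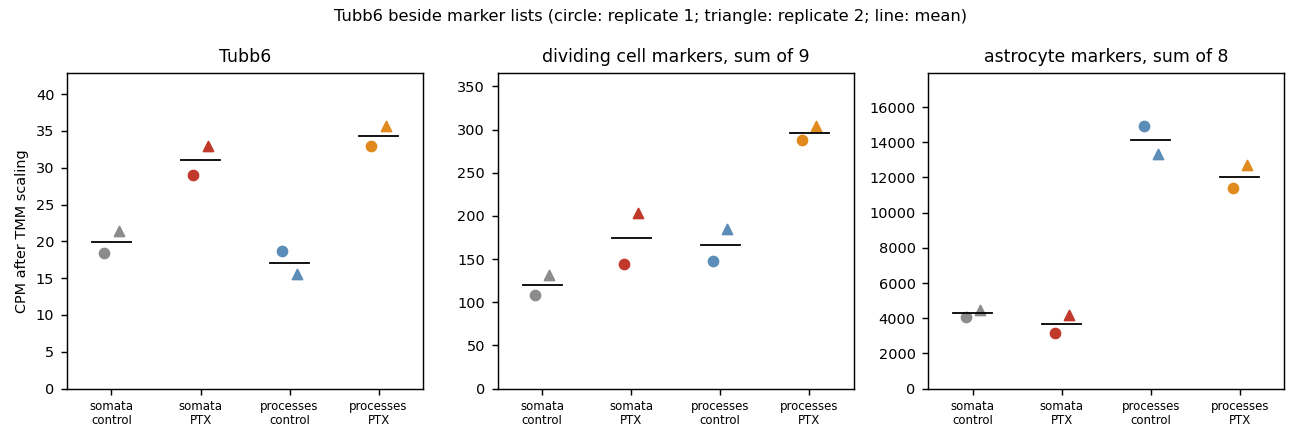
Level of Tubb6 (left), summed level of 9 markers of dividing cells (middle) and summed level of 8 astrocyte markers (right), in CPM after TMM scaling with each y axis from 0, in the 2 libraries of each condition (circle, replicate 1; triangle, replicate 2; line, mean). Tubb6 and the dividing cell markers are higher with PTX in both compartments, and the astrocyte markers differ mainly between compartments.

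Markers of dividing cells moved with Tubb6. The summed level of 9 such genes was 109 to 131 CPM in control somata and 144 to 204 with PTX, and 148 to 184 CPM in control processes and 288 to 304 with PTX. In somata 2 of the 9 rose with PTX, the cyclin-dependent kinase Cdk1 (log2 fold change 0.98, edgeR adjusted p = 0.0221) and the spindle factor Tpx2 (0.74, edgeR adjusted p = 0.0341). In processes 4 of 9 rose, Top2a, Ccnb1, Cdk1 and Tpx2, with log2 fold changes from 0.93 to 1.66. Of all genes 2.09% were called higher with PTX in somata and 1.64% in processes. With the replicate block 7 of 9 rose in each compartment, against 7.21% and 5.10% of all genes. Their part in the rise of Tubb6 was not tested. Of the 8 astrocyte markers 0 rose with PTX in either compartment and 1 fell, the gap junction gene Gja1 in somata (-0.61, edgeR adjusted p = 0.0215). Among all genes, 1.50% were called lower with PTX in somata and 2.10% in processes, and 6.79% and 6.09% with the block. With the block 2 astrocyte markers fell in somata, and 1 rose and 1 fell in processes. Their sum was 3170 to 4209 CPM in PTX somata against 4092 to 4482 in control somata, and 11416 to 12684 CPM in PTX processes against 13327 to 14938 in control processes. Endothelial and fibroblast markers summed to 34.5 to 107 CPM in control somata and 57.7 to 119 with PTX, and to 29.4 to 59.9 CPM in control processes and 32.7 to 86.6 with PTX, so these ranges overlapped. None of the 5 of these genes tested was called with PTX, and with the block 3 rose in somata and 1 in processes. Of the 10 oligodendrocyte lineage markers tested, 0 were called with PTX in either compartment. With the block 2 of them fell in somata and 1 in processes.

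Markers also moved with the compartment. Of the 8 astrocyte markers 4 were higher and 2 lower in control processes, where 25.8% of all genes were higher and 21.9% lower, led by the intermediate filament gene Gfap (log2 fold change 2.60) and by S100b (2.16). Of the 10 neuronal markers 2 were higher and 6 lower, against the same shares, and the higher ones were Map2 (2.30), the dendritic microtubule-associated protein whose mRNA is carried into dendrites, and Rbfox3 (0.52). The 6 lower ones had log2 fold changes from -1.66 (Slc17a6) to -0.37 (Snap25), a span that includes those of Tubb2a, Tubb3, Tubb4a and Tubb4b. With the replicate block 2 neuronal markers were higher and 8 lower, 5 astrocyte markers were higher and 2 lower, and 4 oligodendrocyte lineage markers were higher and 3 lower. Of all genes, 29.8% were higher and 28.0% lower with the block. The part of cell composition in the compartment differences of the isotypes was not tested. With PTX 2 of the 10 neuronal markers were called higher and 1 lower in somata, and 2 higher and 0 lower in processes. Among all genes, 2.09% were called higher and 1.50% lower with PTX in somata, and 1.64% and 2.10% in processes. With the replicate block 3 neuronal markers were higher and 3 lower in somata, and 4 higher and 3 lower in processes. Of all genes, 7.21% were called higher and 6.79% lower in somata with the block, and 5.10% and 6.09% in processes. The neuronal nuclear marker Rbfox3 fell by 0.67 on the log2 scale in somata (edgeR adjusted p = 0.0221), while Gad1 and Gad2, which make GABA, rose there by 0.82 and 0.92.

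Other genes of tubulin biology were counted by list, to be read against the 25.8% higher and 21.9% lower of all genes between control compartments (29.8% and 28.0% with the replicate block) and, with PTX, against 3.59% of all genes called in somata and 3.74% in processes (14.0% and 11.2% with the block). Of 12 other tubulin symbols, 10 were in the table and 6 were tested, with 1 higher and 1 lower (2 lower with the block) in control processes and 0 called with PTX. The gene Tuba1c, the alpha-tubulin nearest to Tuba1a and Tuba1b, was at 203 and 194 CPM in control somata and at 318 and 256 CPM in control processes. Its log2 fold change was 0.53 ± 0.127 (edgeR, adjusted p = 0.00599), and with library size alone it turned to -1.29, still 0.57 above the median of all genes. With PTX it was at 174 and 169 CPM in somata and 245 and 221 CPM in processes. These were log2 fold changes of -0.21 and -0.30 (edgeR adjusted p = 0.498 and 0.267), and in processes the adjusted p was 0.0448 with the block. Tubg1, the gamma-tubulin of nucleation sites, was lower in control processes, at 8.03 and 7.52 CPM against 14.3 and 15.2 CPM in somata (log2 fold change -0.92, edgeR adjusted p = 0.00455).

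RefSeq names 26 tubulin pseudogenes in the rat, 14 of them as copies of Tuba1b, 5 of Tuba1a, 4 of Tubb4b and 1 of Tuba4a. None of the 26 symbols is in the count table. Tuba1a, Tuba1b and Tuba1c are close paralogs, as are Tubb2a and Tubb2b, so how reads of near-identical copies were shared between them is uncertain. Tuba1b and Tuba1c, both on chromosome 7, had the same log2 fold change between compartments in control cultures, 0.53, and the part of shared reads in this was not tested.

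Of 21 folding genes (tubulin cofactors, the CCT chaperonin and prefoldin), all tested, 7 were higher and 4 lower in control processes, shares near those of all genes, and the median log2 fold change was -0.10. With PTX 0 were called in either compartment, and with the block 2 were higher in somata, Pfdn2 among them (0.58, adjusted p = 0.0138), and 1 in processes, Pfdn1 (0.29, adjusted p = 0.0471). The largest differences were those of the prefoldin subunits Vbp1 (1.35), Pfdn1 (1.28) and Pfdn2 (1.24). Pfdn1 was at 66.5 CPM in control processes and 27.4 CPM in control somata, and its edgeR adjusted p was 4.01e-06. With library size alone these 3 turned to -0.47, -0.53 and -0.57, above the median of all genes of -1.86.

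Of 26 genes for enzymes that modify tubulin, 22 were tested, with 7 higher and 7 lower in control processes and a median log2 fold change of 0.10. Vash1 and Svbp, whose products together remove the C-terminal tyrosine of alpha-tubulin, were higher, with log2 fold changes of 1.58 (edgeR adjusted p = 3.95e-06) and 1.42 (edgeR adjusted p = 4.22e-05). With library size alone they turned to -0.23 and -0.39, against that same median of -1.86. Ttll9, of the tubulin tyrosine ligase-like family, was lower (-1.57, edgeR adjusted p = 0.00376), on 7 to 10 reads per control process library. With PTX 1 of the 22 was called in each compartment, a share near that of all genes, and with the block 2 were higher and 2 lower in somata and 1 higher in processes. Vash1 was among the lower ones in somata (-0.35, adjusted p = 0.0293 with the block). The gene called was Agbl1, a carboxypeptidase that removes glutamates from tubulin tails. It had 9 and 12 reads in control somata and 143 and 104 with PTX, and 6 and 6 reads in control processes and 55 and 40 with PTX. Its log2 fold change was 3.46 ± 0.317 in somata (edgeR adjusted p = 0.000337) and 2.89 ± 0.383 in processes (edgeR adjusted p = 0.00402), and the second was lost without replicate 1 of the control processes (2.85, edgeR adjusted p = 0.0514).

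Of 17 nucleation genes (gamma-tubulin ring complex and augmin), 16 were tested, with 4 higher and 5 lower in control processes and a median log2 fold change of -0.06. The augmin genes Haus6 (1.30) and Haus1 (0.92) were higher, and Tubgcp5 (-1.12), of the ring complex, was lower. With library size alone Haus6 and Haus1 turned to -0.49 and -0.88. The Haus6 call was lost without replicate 2 of the control processes (0.82, edgeR adjusted p = 0.0525), and that of Haus1 without any 1 of the 4 control libraries (adjusted p between 0.0543 and 0.191) and in DESeq2 (adjusted p = 0.0677). With PTX 0 of 16 were called in somata and 1 in processes, and with the block 2 and 3 were higher, Haus6 in processes among them (0.80, adjusted p = 0.0224 with the block). The gene called without it was Haus5, with 27 and 15 reads in control libraries and 43 and 57 with PTX (log2 fold change 1.15, edgeR adjusted p = 0.0498). That call was lost without any 1 of the 8 libraries, with adjusted p between 0.0632 and 0.193.

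Of 11 genes for severing enzymes and stathmins, which cut microtubules or hold free dimers, 1 was higher and 2 lower in control processes (2 and 5 with the replicate block), with a median log2 fold change of -0.23. The katanin-like gene Katnal1 was higher (1.19, turning to -0.62 with library size alone), and the stathmin Stmn4 (-1.13) and the katanin gene Katna1 (-0.70) were lower. Katna1 lost its call without replicate 1 or 2 of the control processes (edgeR adjusted p = 0.0519 and 0.0552). With PTX 1 of the 11 was called in somata and 0 in processes, and with the block 2 were lower in somata and 3 in processes, Stmn4 in processes among them (-0.52, adjusted p = 0.00361 with the block). Stmn1, which binds free tubulin dimers, was at 108 and 101 CPM in control somata and at 75.7 and 62.8 CPM with PTX (log2 fold change -0.60 ± 0.135, edgeR adjusted p = 0.0352), a call lost without any 1 of these 4 libraries (adjusted p between 0.069 and 0.245). Ttc5, which recognises nascent tubulin in the autoregulation of tubulin mRNA, was lower in control processes (-0.36 ± 0.112, edgeR adjusted p = 0.0209). That call was lost without replicate 2 of the control somata or either control process library (edgeR adjusted p between 0.0579 and 0.118) and in DESeq2 (adjusted p = 0.0901). Its log2 fold changes with PTX were 0.04 in somata and 0.09 in processes, and neither passed the test.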

How the data were processed

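RNA-seq counts of 8 libraries (4 conditions, 2 libraries each, grouped by the labels) were analysed. The authors aligned reads to Rnor_6.0 with Subread subjunc after trimming by Trimmomatic and assigned them to Ensembl genes by featureCounts, and the deposited values are raw counts summed by gene symbol (the submitters' processing notes name STAR in place of Subread). The library kit keeps strand, and the strand setting of the counting is not given in the sources used here, so reads of overlapping or antisense genes are uncertain. The authors also deposited tables of their own PTX comparisons (log2 fold change, log2 CPM, likelihood ratio, p-value and FDR), which were not used.

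A gene was tested when 2 or more libraries held over 20 of its reads (14309 of 28909 symbols). The quasi-likelihood test of edgeR 4.0.16 in R 4.3.3 (glmQLFit, glmQLFTest, TMM factors) was fitted to all 8 libraries with 1 coefficient per condition. Benjamini-Hochberg adjustment ran over every gene tested, with a threshold of 0.05. The standard error is the log2 fold change over the root of its F statistic, and 95% intervals use the degrees of freedom of the fit. TMM factors were 1.81 to 1.93 in somata and 0.486 to 0.570 in processes. Replicates differed by more than sampling noise (chi-square per degree of freedom 8.61 to 22.7), so none was the same library sequenced again. This does not show that they came from separate cultures. Lower depth in processes makes values there less precise. The test was also run on simulated counts with 200 genes changed. Libraries were drawn independently there, so that run does not cover same-numbered libraries that deviate together.

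The replicate numbers come from the labels. The difference between replicate 2 and replicate 1 correlated across genes for all 6 pairs of conditions (r = 0.274 to 0.540), so same-numbered libraries deviated together. The main test did not use this pairing. Its standard errors, intervals and p-values come from the fit without a block, and results with the replicate block are named as such. The common dispersion was 0.0132, and 0.00459 in a fit that blocks on the replicate number.

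The 10 members, the gene lists, the motifs and the rule for other named genes were chosen with earlier results of these data known. By that rule each list gives up to 3 called genes with the largest difference between compartments in control cultures and every gene called with PTX, and Ttc5 is named in any case. Exon lengths and protein sequences were not analysed here, so levels are not compared between genes. Alternatives tried were DESeq2 1.42.0, edgeR's likelihood ratio test, scaling by library size only or by upper quartile, leaving out mitochondrial-genome genes, no filter, a filter of 10 reads in all libraries, a fit of the compared libraries alone, the replicate block, an adjusted p under 0.01, and each library left out in turn.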

Additional observations from a re-analysis of the deposited data

How the results depend on the processing

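Of the 10 isotypes, 5 were called between compartments in control cultures, against 10 with library size only and 8 with upper-quartile factors (none of either higher), and 5 in PTX cultures, against 10 with library size only. With PTX, 1 was called in somata, against 2 with the likelihood ratio test, 2 with no filter, 0 at an adjusted p under 0.01 and 0 to 1 when each library was left out, and 1 in processes, against 2 with the likelihood ratio test and 4 with no filter. With the replicate block, 4 were called with PTX in each compartment. The block also called Tuba1a and Tubb2b between compartments in control cultures, Stmn1 between them in PTX cultures (0.23, adjusted p = 0.0372), Pfdn2 and Vash1 with PTX in somata, and Tuba1c, Pfdn1, Haus6 and Stmn4 with PTX in processes. It changed no other call among the isotypes and the genes named from the lists. The cause of these changes was not tested. The log2 ratio of the summed level was -1.99 in control and -1.92 in PTX cultures with library size only, and -0.38 and -0.27 with upper-quartile factors.

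With library size only, directions between compartments reversed in control cultures for Tuba1a (-1.46), Tuba1b (-1.29), Tuba1c (-1.29), Vbp1 (-0.47), Pfdn1 (-0.53), Pfdn2 (-0.57), Vash1 (-0.23), Svbp (-0.39), Agbl1 (-1.12), Haus6 (-0.49), Haus1 (-0.88) and Katnal1 (-0.62), and in PTX cultures for Tuba1a (-1.61), Tuba1b (-1.29), Tubb2b (-1.74), Tubb5 (-1.82) and Tubb6 (-1.68). With upper-quartile factors they reversed in PTX cultures for Tubb2b (-0.091), Tubb5 (-0.17) and Tubb6 (-0.030). Tubb5 in PTX cultures was also -0.0080 with no filter, -0.056 with at least 10 reads in every library, and -0.11 to 0.12 when each library was left out.

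When each library was left out, PTX effects in processes that had not passed the test changed sign for Tuba1b (-0.28 to 0.063), Tubb2a (-0.18 to 0.013), Tubb2b (-0.058 to 0.19), Tubb4b (-0.045 to 0.18) and Tubb5 (-0.17 to 0.056). Interactions changed sign for Tuba1a (-0.31 to 0.072), Tuba1b (-0.14 to 0.20), Tuba4a (-0.13 to 0.039), Tubb3 (-0.23 to 0.16), Tubb4a (-0.15 to 0.026) and Tubb4b (-0.081 to 0.14). Where a condition was left with 1 library, that library was assumed to vary like the other conditions. With 2 libraries per condition and fewer reads in processes, small differences are imprecise, and a p above the threshold does not show equal levels.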

Other observations

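The genes whose log2 level was most like that of Tubb3 over the 8 libraries, counting genes that averaged 5 CPM or more, were Slit1 (Pearson r = 0.987), Nck2 (0.984) and Dnm3 (0.979). These are descriptions over 8 libraries that share compartments, treatments and depth, and no p is given. Among the isotypes themselves, Tubb2a followed Tubb4a (r = 0.945) and Tubb4b (0.924), and Tuba1b ran opposite to Tubb4b (-0.971), over the same libraries.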
